A study of Mus musculus with 8 samples.

Results

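Among 10046 bone marrow cells sorted for hematopoietic stem and progenitor cells (HSPCs), 486 carried transcripts of Flt3, Cd34 and Mpo without any of Dntt, and these Flt3 and Mpo positive, Dntt-negative cells are described here as the gated cells. A cell was chosen by its own counts of unique molecular identifiers (UMIs, each 1 captured transcript). It had at least 1 UMI of Flt3 and of Cd34, no UMI of Dntt, at least 2 UMIs of Mpo and fewer than 5 of Elane per 10000 UMIs, and fewer than 3 of the 5 monocyte genes F13a1, Ly86, Csf1r, Ccr2 and Irf8 with a UMI. The values of these 10 genes chose the members, so they are given below as a description and support nothing.

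The cells came from wildtype mice of 12 to 14 weeks. Treated mice received IFNα under the skin, at 50000 IU for each 20 g of body weight, and were analyzed after 3, 24 or 72 h, and control mice received 100 µl PBS, the diluent. Each of the 4 groups had 4 mice, whose sorted Lin- cKit+ (LK) cells, with a fixed proportion of added LK CD150+ CD48- CD34- stem cells, were tagged with 1 hashtag antibody per mouse and pooled into 1 droplet library per group. The mouse was the replicate throughout. Because all cells of a time point sit in a single library, an effect of time and an effect of the library cannot be told apart. The added stem cells also mean that a share of cells is a share of this sorted mixture and not of the marrow.

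In mouse bone marrow, Flt3 is the receptor for FLT3 ligand and rises as stem cells lose self-renewal and become multipotent progenitors. Mpo encodes myeloperoxidase, an enzyme of the primary granules that myeloid progenitors begin to make early, whereas Dntt encodes the terminal transferase of lymphoid priming and Elane the neutrophil elastase of later granulocyte progenitors. IFNα binds the receptor formed by IFNAR1 and IFNAR2, which activates STAT2. A complex that holds STAT2 and IRF9 then binds the interferon-stimulated response element in the promoters of antiviral genes.

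The gate was narrow at each step. Of the kept cells, 2084 had a Flt3 UMI, 2010 of these also had a Cd34 UMI, and 1346 of those had no Dntt UMI. The Mpo limit left 1029 cells, the Elane limit 669 and the monocyte limit 486. Flt3 was detected by a single UMI in 297 gated cells (61.1%), whereas the median for Cd34 was 7 UMIs. Mpo ran from 2.01 to 49.2 UMIs per 10000 with a median of 8.33, compared with a median of 59.5 in Elane-high cells, which carry at least 5 Elane and 2 Mpo UMIs per 10000. Near the limits, 45 gated cells had 2 to 3 Mpo UMIs per 10000 (median 2.40) and 90 cells with 1 to 2 (median 1.39) failed on Mpo alone. On Elane, 8 gated cells had 4 to 5 UMIs per 10000 (median 4.57), and 12 cells with 5 to 6 (median 5.40) failed on it alone. Of the monocyte genes, 234 gated cells had none, 171 had 1 and 81 had 2, while 59, 59 and 65 cells with 3, 4 and 5 of them stayed out by this clause alone.

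Free RNA in the droplets can place a few UMIs in cells that do not express a gene. Car1-high cells, which carry at least 5 UMIs per 10000 of the erythroid carbonic anhydrase Car1 and none of Flt3, served as a population that should lack Mpo and were chosen for this after the data had been seen. A Mpo UMI was found in 44.2% of these 1441 cells, and 3.05% reached the limit of 2 per 10000, at a median depth of 16540 UMIs. The gated cells had a median depth of 16908 UMIs. A Mpo UMI alone thus cannot be told from background in these libraries, while the limit of 2 per 10000 was above the level of most Car1-high cells.

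The markers describe an intermediate profile. In UMIs per 1000000 (CPM) summed over the gated cells and over the other kept cells, Flt3 stood at 90.0 against 18.8 and Cd34 at 429 against 170. Mpo stood at 1199 against 2712, since the rest of the sort includes the Elane-high cells with 6409. Primary granule genes outside the gate rule followed Mpo. Prtn3, which encodes proteinase 3, had 1588 CPM in gated cells, 683 in Hlf-positive cells (no Dntt, low Elane, outside the gate) and 7109 in Elane-high cells. Ctsg, which encodes cathepsin G, had 838, 203 and 3567 CPM in these populations.

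The 5 stem cell markers (Hlf, Mecom, Procr, Fgd5 and Slamf1) all had UMIs in the gated cells, and Hlf was the most abundant. Hlf, a transcription factor of hematopoietic stem cells, was found in 64.2% of the gated cells at 99.6 CPM. It was found in 4.86% of Car1-high cells and in 17.6% of the deeper Elane-high cells, whose median was 30612.5 UMIs. The gated level lay above that of the other kept cells in 16 of 16 mice and below the 235 CPM of cells chosen for Hlf. Mecom stood at 16.1 CPM against 67.5 in Hlf-positive cells and Slamf1, which encodes CD150, at 1.93 against 14.9. Outside the genes of the gate, the label of myeloid-primed progenitors has here only the levels of Prtn3 and Ctsg, granule genes like Mpo. The gate sets an Mpo limit and the Hlf-positive population has none, so these levels are not independent of the rule. The free RNA background of Prtn3 and Ctsg was not measured. Beside them, a stem cell factor was detected in most of the gated cells.

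Markers of other lineages were low. Of the lymphoid markers, Il7r, Rag1 and Ebf1 had no UMI in the gated cells, as had Dntt by the rule, and Rag2 had 6. Car1 stood at 21.4 CPM against 660 in the other kept cells, the platelet factor gene Pf4 at 8.86 against 306, and the monocyte antigen gene Ly6c2 at 8.07 against 312. Cpa3, the mast cell carboxypeptidase, was the exception with 130 CPM against 151. Among genes outside the marker lists, the gated cells carried more of the TNF receptor family gene Cd27 (200 against 87.5 CPM) and of the adhesion receptor gene Adgrl4 (188 against 68.9), and less of Ms4a3, a gene of granulocyte and monocyte progenitors (55.0 against 433).

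Gated cells were few in each mouse. Control mice gave 37, 28, 40 and 3 of them, mice at 3 h gave 14, 11, 27 and 12, mice at 24 h gave 23, 84, 42 and 41, and mice at 72 h gave 44, 17, 32 and 31. The fourth control mouse, which had only 58 kept cells, entered no test because at least 10 gated cells were required, so that all tests compare 3 control mice with 4 treated mice. In control the gated cells held 1915718 UMIs in all. At the 3 later times they held 895735 (3 h), 3924983 (24 h) and 2062686 (72 h). The 3 h group was thus the shallowest, and genes of low level are measured least precisely there.

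As a share of the kept cells, the gated cells made up 4.54% ± 0.649 in control mice and 3.77% ± 0.668, 5.27% ± 1.39 and 4.95% ± 0.998 after 3, 24 and 72 h (SD, n = 4 mice each). The ranges overlapped, with 3.66% to 5.17% in control mice and 3.01% to 4.40%, 3.75% to 6.77% and 3.48% to 5.68% after 3, 24 and 72 h. The gate needs several genes to be detected and one to be absent, so its share moves with depth, and the median UMIs of kept cells were 18964.5, 12017, 18953.5 and 14763 in the 4 groups. With each cell thinned to 5000 UMIs, which left out 199 shallower cells, the gate held 2.62%, 2.38%, 3.15% and 3.11% of the cells. These shares are given without a test, since the rule itself sets them.

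**Figure D1:**
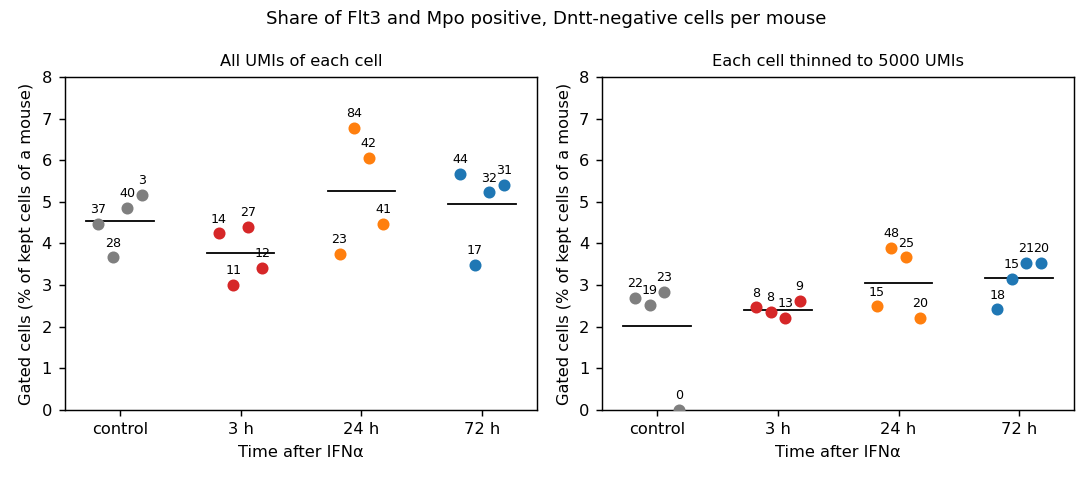
Gated cells as a percentage of the kept cells of each mouse (vertical axis) by group (horizontal axis), with all UMIs on the left and with each cell thinned to 5000 UMIs on the right. Points are mice, the number beside a point is its count of gated cells, and bars are group means. The group ranges overlap on both sides, and the fourth control mouse has 3 gated cells on the left and 0 on the right.

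Levels of the selected Mpo overlapped between groups, with 968 to 1760 CPM in control mice and 744 to 1124, 1055 to 1367 and 1023 to 1460 CPM after 3, 24 and 72 h. The summed neutrophil markers were 2581, 2064, 2586 and 2490 CPM in the 4 groups in order of time. The summed monocyte markers were 173, 694, 267 and 247 CPM, with all 7 markers detected. Ms4a6c, the most abundant, made up most of the 3 h rise, with means of 68.5 CPM in control and 626 CPM at 3 h in the tested mice. The remaining sums moved less in CPM. They were 151, 111, 126 and 113 for the 5 stem cell markers, 73.1, 22.3, 65.7 and 55.8 for the 5 erythroid markers, 30.3, 22.3, 31.8 and 31.5 for the 4 megakaryocyte markers, and 150, 155, 143 and 197 for the 4 basophil and mast cell markers. The basophil and mast cell sum of control includes 1719 CPM in mouse 4, which had 3 gated cells and entered no test. Control mice 1 to 3 had 60.8, 157 and 87.1 CPM, and the mice at 72 h had 149, 227, 236 and 206 CPM. Of the mature lymphocyte markers, Cd79a had 1 UMI and Cd3e none. The part of other cell types in the comparisons below was not tested.

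The first question was which genes answered IFNα in these cells. Expression was compared for 6498 genes between each time point and control with edgeR's quasi-likelihood test and Benjamini-Hochberg adjustment, whose p is called the edgeR adjusted p below. A gene was called where this p was below 0.05 and the change exceeded 1 on the log2 scale in either direction. At 3 h, 260 genes were higher (4.0% of those tested) and 21 lower (0.323%). At 24 h, 47 were higher (0.723%) and 2 lower (0.0308%), and at 72 h, 29 were higher (0.446%) and 15 lower (0.231%). The 3 comparisons share the same 3 control mice. With library size alone as the scaling, which put the median over all genes at -0.17 in place of -0.04 at 3 h, 209 genes were higher and 46 lower at 3 h, and 21 were higher and 25 lower at 72 h.

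At 3 h nearly the whole antiviral list rose. Of 50 listed antiviral effector genes, 48 were in the files and 44 had enough counts to be tested. Of these 44, 42 were called higher and none lower, with a median log2 fold change of 3.85 beside -0.04 over all tested genes. Of 22 listed nucleic acid sensor genes, 14 were tested and 10 were called higher with a median of 2.96. These medians stayed at 3.85 and 2.96 when genes without a control count were set to their lower bound. Of 11 tested interferon-linked surface and nuclear body genes, 9 were called higher with a median of 2.29. The lists were assembled with earlier results of these data known and are no independent evidence of their direction.

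The largest rises began from almost nothing. Cxcl10, which encodes a chemokine that draws T cells, had no UMI in the 3 control mice and 528, 1750, 396 and 530 CPM in the 4 mice at 3 h. Mouse 2 stood apart from the others, yet each of the 4 was far above control. Measured against a floor of 3 counts over the control group (1.60 CPM), this was at least a 424-fold rise. Ifi204, a cytosolic DNA sensor, had no control UMI and 178, 302, 265 and 212 CPM at 3 h, at least 151-fold. Ifit3b had no control UMI either and 131, 79.2, 114 and 265 CPM, at least 87.4-fold.

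The IFIT proteins bind foreign RNA and block its translation. Ifit1 had 2 UMIs over the control mice (0, 1.95 and 1.38 CPM) and 408, 843, 559 and 450 CPM at 3 h, a ratio of 519 with a 95% counting interval of 144 to 4284. Ifit3 had a ratio of 441 (122 to 3640). At 24 h, Ifit1 held 10.8, 16.7, 21.8 and 33.6 CPM, still above every control mouse. The 24 h call was lost without control mouse 1 (log2 fold change 3.52) or 3 (4.27) and in thinned cells (1.26). Its 72 h ratio of 2.83 had an interval that includes no change (0.783 to 23.4). Ifit3 and Ifit3b are close copies of each other, so their split of reads is uncertain.

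The promoters of the genes with the largest rises at 3 h are shown because most hold the letters of the interferon-stimulated response element. The motif GAAANNGAA was searched on both strands in the 300 bases from 250 before to 50 after the RefSeq transcript start (build GRCm38.p6). Capitals mark each match, which reads TTCNNTTTC where it lies on the other strand, and sequences run 5′ to 3′ along the transcribed strand. Cxcl10 lies on the minus strand at chr5:92348840-92349139 with 1 match, 213 bases before the start. Ifit3b (chr19:34607707-34608006), Ifit1 (chr19:34640639-34640938) and Ifit3 (chr19:34583279-34583578) lie on the plus strand with 3 matches each. In Ifit1 a pair of matches overlaps, at 109 and 103 bases before the start. Ifi204 and Pydc3, which also rank among the 8 largest rises, are named without a sequence.
Cxcl10: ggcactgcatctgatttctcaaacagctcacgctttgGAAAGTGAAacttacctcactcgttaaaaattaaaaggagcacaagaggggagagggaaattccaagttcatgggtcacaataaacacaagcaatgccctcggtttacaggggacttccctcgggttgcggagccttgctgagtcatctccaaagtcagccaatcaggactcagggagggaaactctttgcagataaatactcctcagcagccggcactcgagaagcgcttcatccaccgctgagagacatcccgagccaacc
Ifit3b: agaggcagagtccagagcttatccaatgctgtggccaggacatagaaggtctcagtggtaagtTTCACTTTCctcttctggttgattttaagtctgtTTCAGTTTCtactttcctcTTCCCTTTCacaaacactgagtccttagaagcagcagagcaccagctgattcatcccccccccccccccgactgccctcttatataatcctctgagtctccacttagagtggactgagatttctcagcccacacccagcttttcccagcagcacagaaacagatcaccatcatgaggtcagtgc
Ifit1: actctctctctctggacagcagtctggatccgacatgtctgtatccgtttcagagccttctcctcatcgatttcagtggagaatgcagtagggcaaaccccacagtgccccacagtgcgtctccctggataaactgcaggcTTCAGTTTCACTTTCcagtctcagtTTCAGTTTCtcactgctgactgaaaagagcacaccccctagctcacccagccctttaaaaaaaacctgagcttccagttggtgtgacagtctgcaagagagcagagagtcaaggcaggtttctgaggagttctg
Ifit3: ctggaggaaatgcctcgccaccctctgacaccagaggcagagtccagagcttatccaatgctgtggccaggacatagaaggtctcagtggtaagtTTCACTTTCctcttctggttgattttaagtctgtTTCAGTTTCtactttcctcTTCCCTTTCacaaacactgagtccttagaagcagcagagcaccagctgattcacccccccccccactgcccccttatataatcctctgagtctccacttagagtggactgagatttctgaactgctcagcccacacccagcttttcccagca

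The same letters were counted over all tested genes with a promoter in the RefSeq table. They occurred in 71 of 199 genes called higher at 3 h (35.7%), in 402 of 4864 tested genes not called higher (8.26%) and in 473 of 5063 overall (9.34%). They occurred in 15 of 25 genes called higher at 24 h (60.0%), in 3 of 18 called higher at 72 h (16.7%) and in 1 of 13 called lower at 3 h (7.69%). Of the antiviral list, 22 of 34 promoters held them (64.7%), and of the nucleic acid sensors 6 of 8 (75.0%). The shares were lower for pyroptosis and necroptosis genes (5 of 16, 31.2%) and for MHC class I and peptide loading (5 of 19, 26.3%). They were 3 of 18 for the interferon receptor and signaling list and 1 of 6 for the interferon-linked surface and nuclear body genes (16.7% each). A match describes the sequence and does not show that a factor bound there.

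Stat2, Irf9 and Socs1 were called higher at 3 h, and the receptor genes were not called. Stat2 went from 4.65, 7.80 and 2.77 CPM in control to 36.6, 57.6, 42.8 and 113 CPM at 3 h (log2 fold change 3.52 ± 0.49 SE, edgeR adjusted p = 3.6e-08). By 24 h its level of 5.99 to 14.5 CPM overlapped that of control. Irf9 rose by 1.21 ± 0.30 on the log2 scale at 3 h (SE, edgeR adjusted p = 0.0037). This call was lost without control mouse 1 (0.95), without the monocyte clause (0.96) and with the limit of 5 Mpo UMIs per 10000 (1.28). Socs1, an inhibitor induced by the same pathway, rose by 2.74 ± 0.53 (SE, edgeR adjusted p = 6.7e-05), and its call was lost with that limit (2.16). The receptor genes were not called, with log2 fold changes of -0.18 ± 0.45 for Ifnar1 and -0.01 ± 0.20 for Ifnar2 (SE). Of the 20 tested genes of the interferon receptor and signaling list, 5 were called at 3 h and 1 at 24 h, and none later. Of all tested genes, 4.0% were called higher at 3 h and 0.723% at 24 h, and the median of the list was 0.08 at 3 h.

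Irf7, a transcription factor that amplifies interferon production, followed the longest course within that list. It stood at 20.2, 7.8 and 6.92 CPM in control, at 403, 497, 368 and 450 CPM at 3 h and at 60.5, 67.9, 77.3 and 93.5 CPM at 24 h. The log2 fold changes were 5.14 ± 0.23 and 2.66 ± 0.27 (SE, edgeR adjusted p = 1.5e-29 and 6.4e-12). At 72 h it held 4.16, 0, 3.44 and 6.46 CPM, below every control mouse, but this difference of -1.49 ± 0.55 did not pass (edgeR adjusted p = 0.18). Thinned cells gave 1.46 at 24 h, which was no longer called.

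At 24 h, 18 of the tested antiviral genes were still called higher, beside 0.723% of all tested genes. The median log2 fold change over the list was 1.26 (1.19 with genes at 0 in control at their bound), beside -0.01 over all tested genes. Rsad2, which encodes the antiviral protein viperin, had 1.55, 3.9 and 1.38 CPM in control, 382, 619, 336 and 424 CPM at 3 h and 23.8, 23, 37.5 and 31.2 CPM at 24 h (log2 fold change 7.49 ± 0.33, then 3.60 ± 0.50 SE). In thinned cells its 24 h change was 1.49 and was not called (edgeR adjusted p = 0.74), and Ifit1 (1.26), Oas1a (0.95), Oasl1 (1.98), Oasl2 (1.11) and Ifi44 (1.46) lost their 24 h calls there too. Rtp4, an interferon-induced chaperone gene for receptor transport, had 38.8, 11.7 and 26.3 CPM in control, 418, 475, 416 and 404 CPM at 3 h and 136, 132, 143 and 169 CPM at 24 h (3.99 ± 0.19, then 2.43 ± 0.20 SE). Both genes overlapped the control values at 72 h, Rsad2 at 1.39 to 8.81 CPM and Rtp4 at 23.7 to 39.5 CPM. Bst2, the virus-retaining membrane protein tetherin, went from 192, 246 and 205 CPM to 1485, 1210, 1097 and 1199 CPM at 3 h, was 417 to 465 CPM at 24 h and 172 to 208 CPM at 72 h. At 72 h no antiviral, sensor or signaling gene was called higher, and the antiviral median was 0.10.

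**Figure D2:**
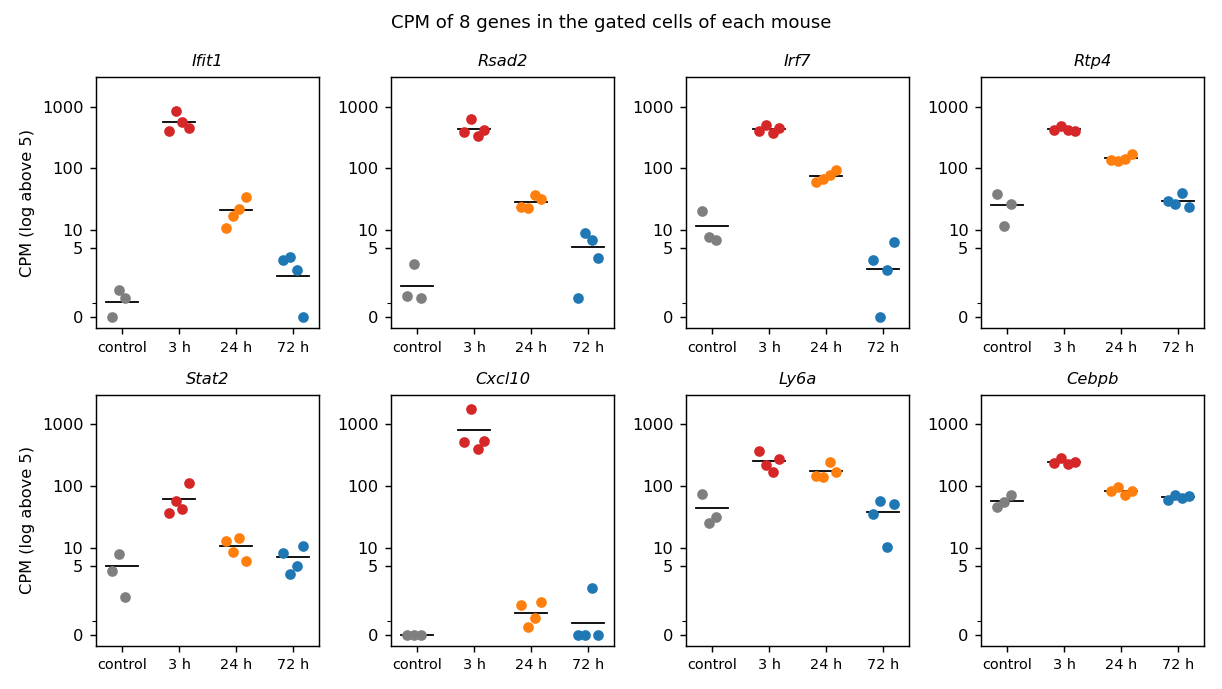
CPM of 8 genes in the gated cells of each mouse (vertical axis, logarithmic above 5 and linear below) by group (horizontal axis). Points are mice and bars are group means. All 8 genes lie above every control mouse at 3 h. Ifit1, Rsad2, Irf7, Rtp4, Cxcl10 and Ly6a still do at 24 h, Cxcl10 with 5 UMIs there. At 72 h none of the 8 was called.

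Ifi27l2a was called at 24 h and not at 3 h. It had 7.75, 25.3 and 34.6 CPM in control, 204, 137, 48.5 and 72.9 CPM at 3 h and 143, 217, 163 and 225 CPM at 24 h. The 24 h rise was called (log2 fold change 3.06 ± 0.45 SE, edgeR adjusted p = 0.0023) and the 3 h rise of 2.20 ± 0.62 was not (edgeR adjusted p = 0.055). Whether the 2 time points differ was not tested. Hist1h2ap, a histone gene whose family members share sequence, had 14.0, 37.0 and 30.4 CPM in control, 523, 57.6, 507 and 775 CPM at 3 h, 294, 229, 274 and 268 CPM at 24 h and 143, 17.6, 96.2 and 127 CPM at 72 h. It was called at 3 h (4.16 ± 0.63 SE, edgeR adjusted p = 0.00080) and at 24 h (3.29 ± 0.60 SE, edgeR adjusted p = 0.012), and at 72 h the second mouse lay among the control mice. The 24 h call was lost without control mouse 1 (2.98, edgeR adjusted p = 0.081) or 3 (3.42, edgeR adjusted p = 0.077).

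Ly6a encodes Sca-1, the surface antigen used to sort stem cells, and it is interferon-induced. It had 74.4, 25.3 and 31.8 CPM in control, 366, 223, 171 and 278 CPM at 3 h and 147, 140, 250 and 170 CPM at 24 h (log2 fold change 2.48 ± 0.48 and 1.97 ± 0.42 SE, edgeR adjusted p = 0.0053 and 0.031). At 72 h it held 34.7, 57.3, 10.3 and 51.7 CPM. All 8 mice at 3 and 24 h lay above every control mouse, while the 24 h call was lost without control mouse 2 or 3 or without 24 h mouse 3 or 4 (log2 fold change 1.74 to 1.98). It was also lost with no filter on low counts (edgeR adjusted p = 0.053), with the hashtag block (edgeR adjusted p = 0.090) and in thinned cells with at least 3 per mouse (1.09), where the 3 h change of 2.07 was not called either (edgeR adjusted p = 0.072). Ly6a was the called gene among 13 tested stem cell genes, beside 4.0% of all tested genes called higher at 3 h and 0.723% at 24 h, and the median of the list was -0.18 at 3 h. Within this list the stem cell transcription factor gene Meis1 had changes of -0.53 ± 0.21, -0.52 ± 0.15 and -0.61 ± 0.17 (SE, edgeR adjusted p = 0.12, 0.047 and 0.030), all below the required fold, and Hlf was not called.

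Antigen presentation genes moved by smaller steps. Of 21 tested genes of MHC class I and peptide loading, H2-Q4, H2-T22, H2-T23 and Tap1 were called higher at 3 h, beside 4.0% of all tested genes, with a list median of 0.41. H2-T23 was not called without TMM (0.96) or in thinned cells with at least 3 per mouse (0.46), nor H2-T22 with the limit of 5 Mpo UMIs per 10000 (0.86). Tap1, a subunit of the peptide transporter, went from 96.1, 79.9 and 85.8 CPM to 188, 266, 234 and 146 CPM (1.27 ± 0.17 SE, edgeR adjusted p = 1.8e-08). B2m, the shared light chain, rose by 0.29 ± 0.07 at 3 h and by 0.47 ± 0.06 at 24 h on the log2 scale (SE, edgeR adjusted p = 0.0022 and 1.5e-07), below the required fold. In the list of MHC class II genes, of which 5 were tested, Ctss was called at 3 and 24 h and Cd74 at 24 h. Of all tested genes, 4.0% were called higher at 3 h and 0.723% at 24 h. The medians of this list were -0.08 and 0.01. The Ctss calls depended on the gate, since its changes of 2.27 and 1.54 became 0.52 and 0.12 without the monocyte clause, neither of them called. The 24 h call was also lost without control mouse 3 (1.24) and in thinned cells (-0.093). Cd74, the invariant chain, had 15.5, 1.95 and 11.1 CPM in control and 17.3, 23, 54.4 and 36.0 CPM at 24 h (1.67 ± 0.46 SE, edgeR adjusted p = 0.049), a call lost without 8 of the 15 mice in turn and under other settings.

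Cebpb encodes the C/EBP family factor of emergency granulopoiesis. It was the called gene of 19 tested myeloid transcription factors at 3 h, a share near the 4.0% of all tested genes, and the median log2 fold change of the list was -0.25. Control mice had 46.5, 54.6 and 72.0 CPM, mice at 3 h 235, 281, 225 and 245 CPM and mice at 24 h 84.2, 94.9, 71.3 and 82.7 CPM. The 3 h rise was 2.05 ± 0.18 (SE, edgeR adjusted p = 2.6e-15) and was called under every alternative tried. Spi1 (-0.18 ± 0.15), Cebpa (-0.29 ± 0.29) and Gfi1 (-0.95 ± 0.46 SE), which direct granulocyte and monocyte fate, were not called at 3 h.

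Of 18 tested primary granule and neutrophil genes, 1 (Plac8) was called higher at 3 h, a share near the 4.0% of all tested genes. None was called later, and the medians were 0.00, 0.05 and 0.13. Plac8 had 1631, 2176 and 1892 CPM in control and 4516, 4415, 4318 and 3742 CPM at 3 h (1.17 ± 0.13 SE, edgeR adjusted p = 2.3e-05). Its change was 0.74 without the monocyte clause of the gate, 0.77 in thinned cells and 0.72 in thinned cells with at least 3 per mouse. All of these were below the required fold. Prtn3 changed by -0.12 ± 0.20, Ctsg by -0.47 ± 0.35 and Ms4a3 by -0.00 ± 0.73 at 3 h (SE).

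Of 11 tested monocyte and dendritic cell genes, Ms4a6c, Tmsb10, Bst2 and Ctss were called higher at 3 h, beside 4.0% of all tested genes and with a list median of -0.19. Ms4a6c, a membrane protein gene of monocytes, had 54.3, 78.0 and 73.3 CPM in control and 664, 699, 633 and 510 CPM at 3 h (3.20 ± 0.16 SE, edgeR adjusted p = 4.7e-25). Its 24 h change of 1.43 ± 0.16 became -0.01 without the monocyte clause of the gate. In thinned cells it was 0.47, and 0.45 with at least 3 per mouse, and was not called. Among 11 tested myeloid growth factor receptors, Csf2rb, the shared beta chain for GM-CSF, IL-3 and IL-5, was the 1 called at 3 h (1.22 ± 0.39 SE, edgeR adjusted p = 0.040), beside 4.0% of all tested genes, and Kit (-0.38 ± 0.20) and Csf3r (0.44 ± 0.30 SE) were not. The Csf2rb call was lost with DESeq2, without TMM, with no filter, with the likelihood ratio test, with at least 3 cells per mouse, with the limit of 5 Mpo UMIs per 10000 (0.66), and without control mouse 2 or 3 or 3 h mouse 2, 3 or 4 (0.99 to 1.29).

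Of 21 tested pyroptosis and necroptosis genes, 6 (Casp4, Il18, Gbp5, Mlkl, Zbp1 and Tnfsf10) were called higher at 3 h, beside 4.0% of all tested genes, and Zbp1 also at 24 h. Casp4, which encodes the caspase that senses lipopolysaccharide inside the cell, had 21.7, 9.75 and 19.4 CPM in control and 99.3, 86.4, 88.4 and 99.4 CPM at 3 h (2.39 ± 0.31 SE, edgeR adjusted p = 3.0e-09). Zbp1, a sensor upstream of necroptosis, had 7.75, 5.85 and 11.1 CPM in control, 272, 396, 197 and 325 CPM at 3 h and 36.7, 19.0, 23 and 37.2 CPM at 24 h (5.01 ± 0.30, then 1.62 ± 0.39 SE). Its 24 h call was lost without control mouse 1 (1.56) or 2 (1.47) and in thinned cells (1.24). Mlkl, the executioner of necroptosis, rose by 1.31 ± 0.32 (SE, edgeR adjusted p = 0.0023), and by 0.57 with the limit of 5 Mpo UMIs per 10000, which was not called. Casp1, Gsdmd and Ripk3 were not called, with 0.54 ± 0.29, 0.18 ± 0.32 and 0.29 ± 0.28 at 3 h (SE).

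The lists that follow, of cycle regulators, glycolysis, purine synthesis and S phase, held 1 or 2 called genes each at 3 h, beside 4.0% of all tested genes. Of 20 tested cycle regulators, Ccnd2, a G1 cyclin, went from 155, 175 and 120 CPM to 570, 547, 459 and 391 CPM at 3 h (1.72 ± 0.16 SE, edgeR adjusted p = 3.1e-11) and was back at 125 to 208 CPM at 24 h. Myc changed by 0.51 ± 0.15 (SE, edgeR adjusted p = 0.018), below the required fold. Of 15 tested glycolysis genes, Hk2 and Pgk1 were called at 3 h and Pgk1 also at 24 and 72 h. Pgk1, the phosphoglycerate kinase gene, changed by 1.41 at 72 h and lost this call without control mouse 1 (1.36, edgeR adjusted p = 0.063) or without mouse 1 at 72 h (1.16, edgeR adjusted p = 0.082). In thinned cells its changes of 0.92 at 24 h and 0.80 at 72 h were not called. The hexokinase gene Hk2 rose by 2.06 ± 0.28 at 3 h (SE, edgeR adjusted p = 1.1e-08), and of 23 tested purine genes the phosphorylase gene Pnp rose by 1.41 ± 0.14 (SE, edgeR adjusted p = 1.4e-12). Among 35 tested S phase genes, whose median was -0.18 at 3 h, Hells was called, but not without control mouse 3 (0.99) or 3 h mouse 3 (0.70), without TMM (0.95), with the likelihood ratio test (0.99) or without the monocyte clause (0.91).

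No gene was called at any time among 11 tested lymphoid priming genes, 10 erythroid and megakaryocyte genes, 6 basophil and mast cell genes, 2 mature lymphocyte genes, 9 BCL2 family genes, 19 immediate-early genes and 75 mitochondrial ribosomal protein genes. Among 16 homing and adhesion genes, Ly6e was called at 3 h, and among 10 chemokine and cytokine genes, Cxcl10, Tnfsf10 and Il18 were, beside 4.0% of all tested genes. Ly6e was not called without the monocyte clause (0.78), and neither Ly6e (0.88) nor Il18 was with the limit of 5 Mpo UMIs per 10000. The basophil and mast cell list had medians of 0.591, 0.185 and 0.61 at 3, 24 and 72 h, and 5 of its 6 genes had changes above 0 at 72 h. There Lmo4 changed by 0.92 ± 0.15 (SE, edgeR adjusted p = 1.5e-05), below the required fold. Ms4a2, with 3 control UMIs, changed by 4.09 ± 1.21 and did not pass (SE, edgeR adjusted p = 0.13).

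The 21 genes called lower at 3 h were of low level. Abl1, a tyrosine kinase gene, went from 26.4, 15.6 and 26.3 CPM to 0, 7.20, 5.70 and 6.62 CPM (-2.23 ± 0.64 SE, edgeR adjusted p = 0.015), and Nmnat3, a gene of NAD synthesis, from 26.4, 19.5 and 22.1 CPM to 10.5, 0, 2.85 and 6.62 CPM (-2.20 ± 0.63 SE). Both lie below every control mouse at 3 h, but these values rest on 4 UMIs of Abl1 in the 4 treated mice together. The Abl1 call was lost without control mouse 3 or 3 h mouse 1 or 3, and the Nmnat3 call without 3 h mouse 3 (-1.85). Without the monocyte clause the changes were -0.99 and -0.72. DESeq2 called 3 genes lower, and without mouse 2 at 3 h edgeR called 34. At 24 h the 2 lower genes, named here after their values were seen, were Ctsf, a cathepsin gene (-1.37 ± 0.40), and Gdf3, a TGF-beta family gene (-1.32 ± 0.37 SE).

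**Figure D3:**
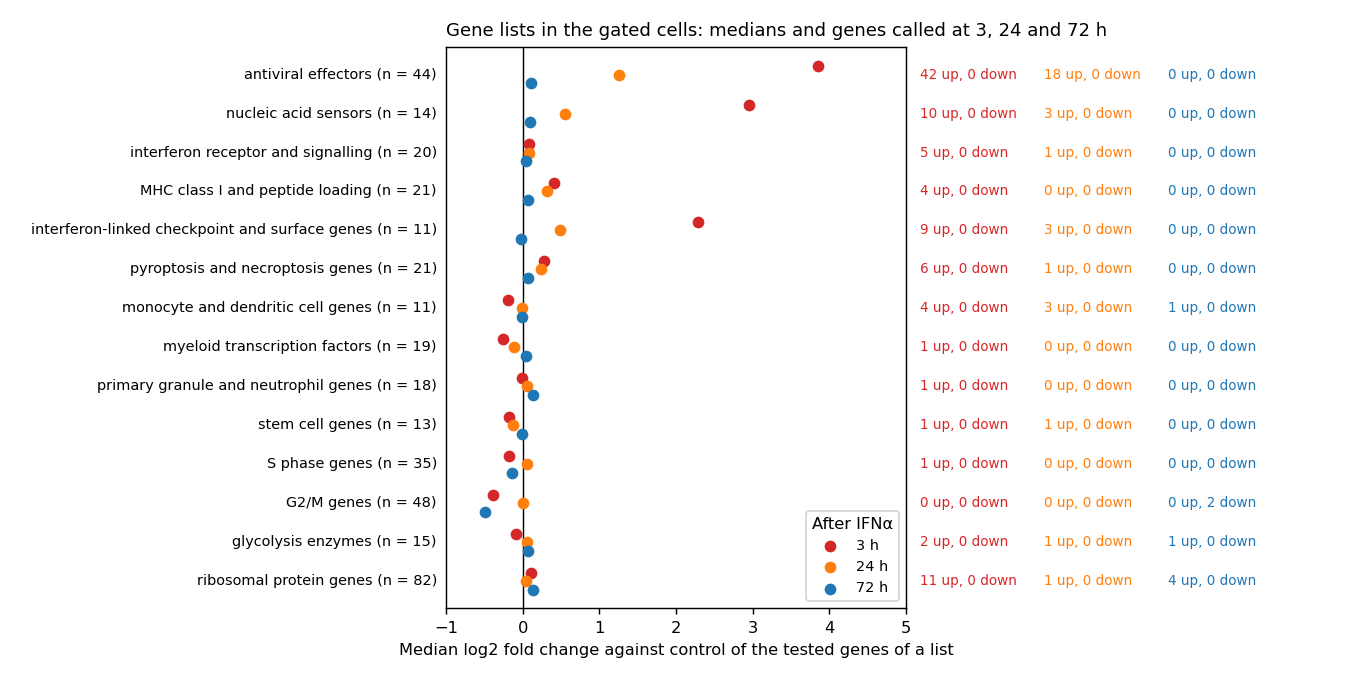
Median log2 fold change against control (horizontal axis) of the tested genes of 14 lists (vertical axis, n tested genes in brackets) at 3, 24 and 72 h, with the number of genes called higher and lower on the right. The antiviral list has the highest median at 3 h (3.85) and at 24 h (1.26), and the medians of the 14 lists lie between -0.49 and 0.13 at 72 h.

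A second set of rises lasted to 72 h. Hmga1, which encodes a chromatin protein of the AT-hook family, had 12.4, 7.80 and 6.92 CPM in control, 47.0, 72.0, 42.8 and 66.2 CPM at 3 h, 28.1, 28.2, 33.8 and 25.2 CPM at 24 h and 33.3, 39.6, 41.2 and 34.5 CPM at 72 h. The 12 treated mice all lay above the 3 control mice, and the log2 fold changes were 2.53 ± 0.38, 1.65 ± 0.33 and 1.99 ± 0.34 (SE, edgeR adjusted p = 2.4e-07, 0.00055 and 2.6e-05). Rpl35, a protein gene of the large ribosomal subunit, had 681, 719 and 688 CPM in control, 3910, 3003, 3646 and 3226 CPM at 3 h, 1454, 1577, 1668 and 1704 CPM at 24 h and 2450, 2356, 2575 and 2642 CPM at 72 h. The groups did not overlap, and the changes were 2.32 ± 0.08, 1.21 ± 0.07 and 1.85 ± 0.07 (SE, edgeR adjusted p = 1.2e-36, 1.0e-21 and 1.6e-31).

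Other genes were called higher at 3 and 72 h, with smaller changes at 24 h. Lsm7, a gene of the RNA-binding Sm-like ring, changed by 2.45 ± 0.23, 1.27 ± 0.22 and 1.84 ± 0.22, and Tmsb10, an actin-binding thymosin gene, by 1.76 ± 0.09, 0.72 ± 0.09 and 1.28 ± 0.09 (SE). In thinned cells the 72 h change of Lsm7 was 0.998 and was not called. Gstp1, a glutathione transferase gene, changed by 2.45 ± 0.26, 0.93 ± 0.25 and 1.46 ± 0.25, and Polr2l, a subunit gene shared by the RNA polymerases, by 2.47 ± 0.30, 0.81 ± 0.29 and 1.64 ± 0.29 (SE). At 24 h Lsm7 was called, Tmsb10 and Gstp1 were below the required fold, and Polr2l did not pass (edgeR adjusted p = 0.19). In thinned cells the 72 h change of Polr2l was 1.73 and was not called. Of 82 tested ribosomal protein genes, 11 were called higher at 3 h, 1 at 24 h, and later 4 (Rpl35, Rpl38, Rps27 and Rps29), beside 4.0%, 0.723% and 0.446% of all tested genes and with medians of 0.11, 0.05 and 0.13. Of 86 tested respiratory chain genes, Atp5k, Cox7c and Ndufa3 were called at 3 h, a share no larger than the 4.0% of all tested genes, and Atp5k at 72 h.

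The genes called higher at 72 h had short transcripts, and the level of Rpl35 was above control in the other populations as well. The 29 genes called higher at 72 h had a median longest transcript of 821 bases in the GENCODE vM21 annotation, beside 3115 bases over all tested genes and 2990 bases for those called higher at 3 h. The 1300 shortest tested genes (183 to 1752 bases) had a median log2 fold change of -0.05 at 72 h, beside -0.00 over all tested genes. Rpl35 went from 649 to 3330, 1455 and 2347 CPM in Hlf-positive cells and from 654 to 3557, 1547 and 2442 CPM in Elane-high cells, and its response in the gated cells differed from theirs by -0.16 to 0.04 on the log2 scale. Time and library cannot be told apart here. Rpl35, Hmga1, Tmsb10 and Pgk1 have processed copies elsewhere in the genome, so the split of their reads is uncertain.

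Falls at 72 h were clearest for Wdr89, a WD repeat gene. It had 219, 197 and 202 CPM in control, 125, 108, 117 and 126 CPM at 3 h, 171, 155, 126 and 146 CPM at 24 h and 63.9, 83.7, 73.9 and 84.0 CPM at 72 h. All 12 treated mice lay below the control mice, and the changes were -0.79 ± 0.16, -0.47 ± 0.12 and -1.47 ± 0.15 (SE, edgeR adjusted p = 0.00025, 0.012 and 2.7e-12), of which the 72 h change was called. Nutf2, a nuclear transport factor gene, had 69.8, 40.9 and 49.8 CPM in control and 13.9, 13.2, 18.9 and 23.7 CPM at 72 h (-1.61 ± 0.31 SE, edgeR adjusted p = 0.00039). Nme2, a nucleoside diphosphate kinase gene with a close copy, fell by 1.42 on the log2 scale, and Rnaset2a, which also has a near-identical copy, fell by 1.34, a call lost in thinned cells (-0.87).

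Ube2l6 encodes the conjugating enzyme for the ubiquitin-like ISG15 and changed in both directions. It stood at 51.2, 31.2 and 48.4 CPM in control, 314, 396, 305 and 291 CPM at 3 h, 47.5, 57.5, 60.4 and 91.1 CPM at 24 h and 20.8, 26.4, 15.5 and 17.2 CPM at 72 h. The 3 h rise was 2.85 ± 0.19 and the 72 h fall was -1.21 ± 0.29 (SE, edgeR adjusted p = 1.4e-20 and 0.0054). The 72 h call was lost without control mouse 1 (-1.09) or 3 (-1.13), and in thinned cells the change was -0.28.

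Of 48 tested G2/M genes, Ccna2 and Cdca2 were called lower at 72 h, beside 0.231% of all tested genes, and none at 3 or 24 h. The list medians were -0.39, 0.00 and -0.49 beside -0.04, -0.01 and -0.00 over all tested genes. Ccna2, a cyclin of S and G2 phase, had 58.9, 40.9 and 54.0 CPM in control and 27.8, 0, 22.3 and 25.9 CPM at 72 h (-1.21 ± 0.30 SE, edgeR adjusted p = 0.012). Cdca2 changed by -1.11 ± 0.32 (SE, edgeR adjusted p = 0.037), and the proliferation marker Mki67 by -0.97 ± 0.34 (SE, edgeR adjusted p = 0.23). Esco2, which joins sister chromatids, fell by 1.39 with 15.3, 0, 15.5 and 17.2 CPM at 72 h. The second mouse at 72 h, which had 17 gated cells, was at 0 for both Ccna2 and Esco2. The Ccna2 call was lost without control mouse 1 (-1.10) or 3 (-1.17) and with the limit of 5 Mpo UMIs per 10000 (-1.01). The Esco2 call was lost without control mouse 3 (-1.29). The Cdca2 call was lost with DESeq2, with at least 3 cells per mouse and without any 1 of the 3 control mice or of mice 2, 3 and 4 at 72 h (-1.20 to -0.83). Without the monocyte clause the changes were -0.94 for Ccna2, -0.90 for Esco2 and -0.61 for Cdca2, and none was called.

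**Figure D4:**
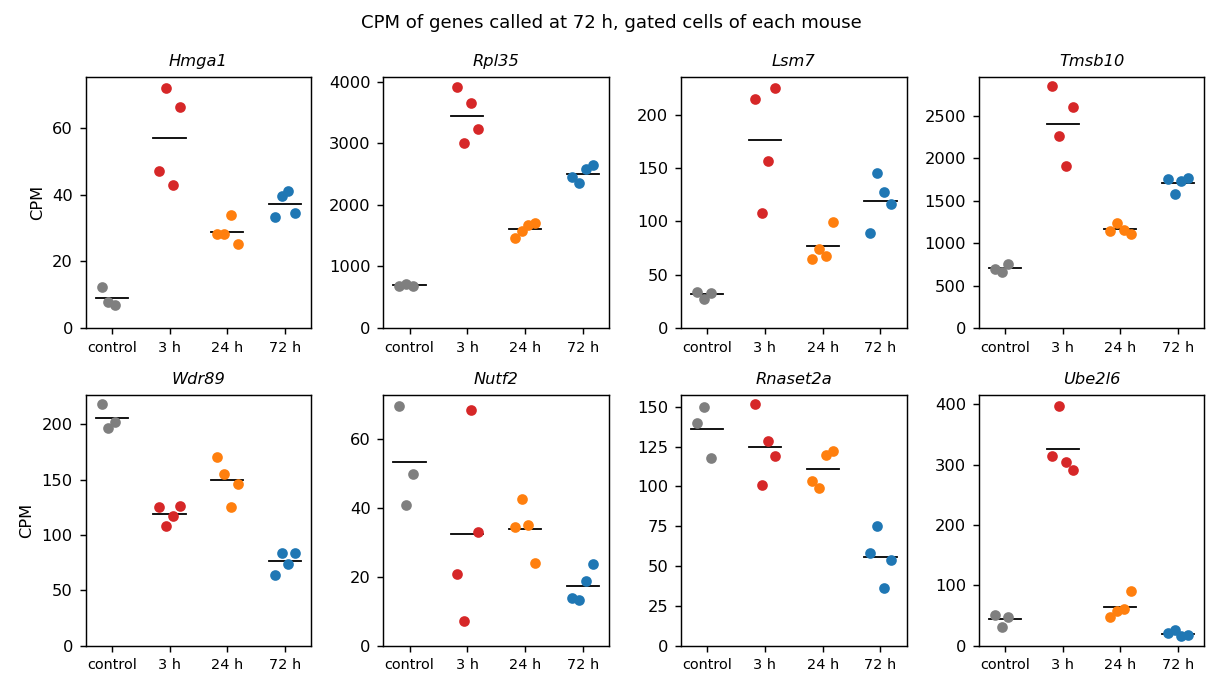
CPM of 8 genes called at 72 h in the gated cells of each mouse (vertical axis, linear) by group (horizontal axis), with rises in the upper row and falls in the lower. Points are mice and bars are group means. In each panel the 4 mice at 72 h lie beyond all 3 control mice, and the 4 rises are larger at 3 h than at 24 h.

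The last question was whether the gated cells answered differently from related cells of the same mice. For each of 3 populations, the difference in response (gated minus other, log2 scale) was tested with the mouse in the model, in the 15 mice. Against 2775 Hlf-positive cells, 0 of 8767 genes were called at 3 h (0%) and 2 (0.0228%) each at 24 and 72 h. At an unadjusted p under 0.05 there were 566, 325 and 383 such genes. Against 661 Dntt and Flt3 positive cells, 3 of 7805 genes were called at 3 h (0.0384%) and 2 at 24 h (0.0256%), then 0 (0%), with 405, 403 and 320 at an unadjusted p under 0.05. Against 1990 Elane-high cells, 11 of 9385 genes were called at 3 h (0.117%) and 1 at 24 h (0.0107%), then 0 (0%), with 784, 467 and 434. Thinned cells, which left 1 mouse at 3 h, gave at most 2 calls in any of the 9 comparisons.

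Cebpb differed most firmly. It went from 43.5, 51.6 and 67.3 CPM to 218, 252, 211 and 224 CPM at 3 h in gated cells, and from 198, 189 and 210 CPM to 344, 336, 281 and 265 CPM in Elane-high cells. The gated cells thus began lower and rose by more, a difference in response of 1.43 ± 0.19 (SE, edgeR adjusted p = 1.4e-08). It was called without each of the 15 mice in turn, and without the monocyte clause of the gate it was 1.18 (edgeR adjusted p = 1.2e-06).

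The other 10 differences from Elane-high cells at 3 h were not called without the monocyte clause. The gate leaves out cells with 3 or more monocyte genes and the Elane-high population does not. Gbp7, a guanylate-binding protein gene, rose from 29.6 to 307 CPM on average in gated cells and from 26.4 to 133 CPM in Elane-high cells, a difference of 1.04 ± 0.24 (SE, edgeR adjusted p = 0.014) that was 0.88 without the clause, below the required fold (edgeR adjusted p = 0.035). Ms4a6b, a membrane gene of the Ms4a cluster, differed by 1.84 ± 0.25 (SE, edgeR adjusted p = 3.8e-07) and by 0.85 without it. Pyhin1 fell from 2.77 to 0.21, Ms4a4c from 3.04 to 1.02, Ms4a4b from 2.53 to 0.76, Ctss from 2.47 to 0.73, Ms4a6c from 2.15 to 0.42, Unc93b1 from 1.44 to 0.52 and Ifit2 from 2.59 to 2.02. Rilpl1 differed by -4.71, from an Elane-high control level of 0.139 CPM, and by -3.85 without the clause (edgeR adjusted p = 0.091). Aurkb, a mitotic kinase gene, was the call at 24 h (1.19 ± 0.21 SE, 0.86 without the clause). It averaged 46.5 CPM in control and 55.6 CPM at 24 h in gated cells and 65.9 and 34.8 CPM in Elane-high cells, and the call was lost without control mouse 1 (1.05) or 24 h mouse 2 (1.12) and in thinned cells (0.65).

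**Figure D5:**
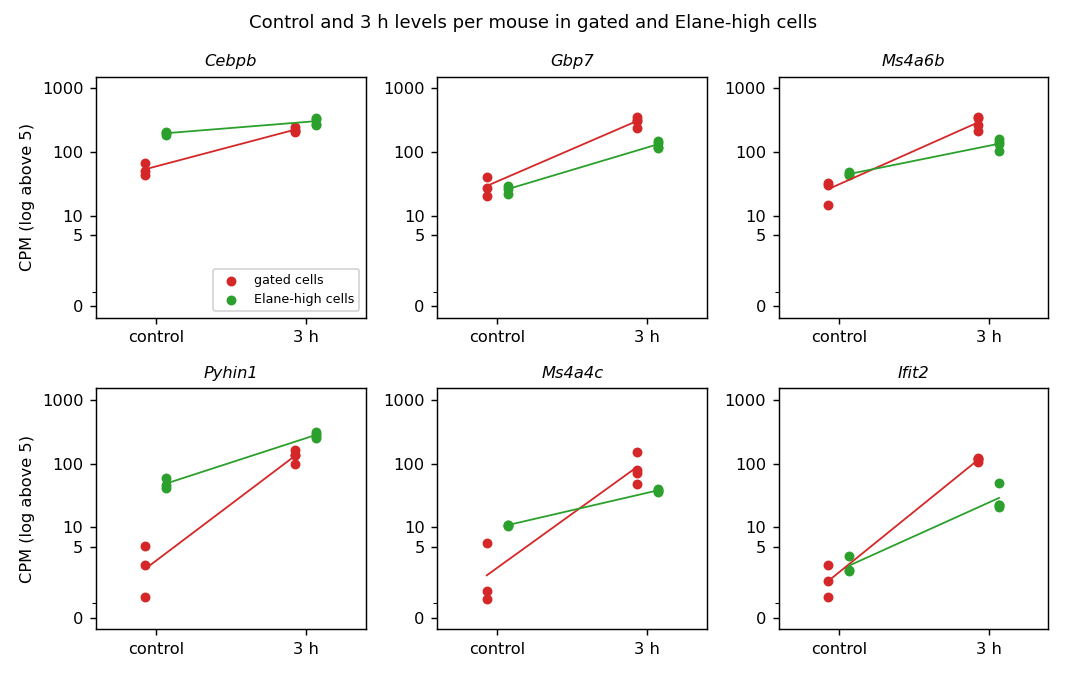
CPM per mouse (vertical axis, logarithmic above 5 and linear below) in control and at 3 h (horizontal axis) for 6 genes called as different in response between gated cells (red) and Elane-high cells (green). Points are mice and lines join group means. Cebpb starts lower in gated cells (54.1 against 199 CPM) and the lines come closer at 3 h (226 against 307 CPM).

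Rtp4 was called against Hlf-positive cells and against Dntt and Flt3 positive cells, and not against Elane-high cells. At 24 h it averaged 145 CPM in gated and 132 CPM in Hlf-positive cells, from control levels of 25.5 and 59.6 CPM, a difference in response of 1.26 ± 0.23 (SE, edgeR adjusted p = 0.0030). Against Dntt and Flt3 positive cells the difference was 1.28 ± 0.26 (SE, edgeR adjusted p = 0.013). The 24 h levels lay closer together than the control levels, and of the 3 control mice the second had 11.8 CPM in gated cells beside 68.8 CPM in Hlf-positive cells. The call held in 13 of 15 and in 12 of 15 fits without 1 mouse. Both calls were lost without control mouse 2 (0.89 and 1.02) or 3, and the latter also without mouse 4 at 24 h. Against Dntt and Flt3 positive cells it was lost without the monocyte clause (1.67, edgeR adjusted p = 0.064). In thinned cells it was lost against both populations, with differences of 1.43 from Hlf-positive and 1.00 from Dntt and Flt3 positive cells.

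Tyrobp (1.02 ± 0.22), Lgals1 (1.13 ± 0.22) and Ms4a6c (1.21 ± 0.24) at 3 h and Cenpf (1.22 ± 0.22 SE) at 24 h were called against Dntt and Flt3 positive cells. Without the monocyte clause they were 0.55, 0.44, -0.50 and 0.78 and none was called. Of the 15 fits without 1 mouse, Tyrobp was called in 12, Lgals1 in 13, Ms4a6c in 10 and Cenpf in 13. The losses came without control mouse 3 or 3 h mouse 2 or 3 for Tyrobp, control mouse 2 or 3 h mouse 3 for Lgals1, any control mouse or 3 h mouse 2 or 3 for Ms4a6c, and control mouse 2 or 24 h mouse 2 for Cenpf. The basophil protease genes Prss34 at 24 h (-7.23) and 72 h (-7.15) and Mcpt8 at 72 h (-2.67) were called against Hlf-positive cells. Prss34 rests on 7 UMIs in all gated cells. In Hlf-positive cells it had 1.29, 2.34 and 1.94 CPM in control, 1.02, 94.4, 1.89 and 0.97 CPM at 24 h and 177, 0.50, 20.7 and 0 CPM at 72 h, so that 1 mouse held most of the signal at each time. Its calls were lost without control mouse 1 or 3, and without mouse 2 at 24 h or mouse 1 or 3 at 72 h it was not among the tested genes. Mcpt8 had 3.21, 16.4 and 3.50 CPM there in control and 34.8, 19.2, 27.3 and 4.60 CPM at 72 h. In gated cells it had 4.63, 63.0 and 17.9 CPM in control and 11.1, 17.3, 19.0 and 6.40 CPM at 72 h. The Mcpt8 call was lost without control mouse 2 or 3, without mouse 1 at 72 h (-2.13) and in thinned cells (-1.11).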

How the data were processed

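UMI counts were deposited by the authors for each gene in each barcode, made with Cell Ranger 3.1.0 on mm10 per the labels, and hashtag calls from Seurat. The counts carry no normalization, and the annotation version is not given in the sources used here. The deposited barcodes of the 4 libraries, in order of time, numbered 3190, 2454, 4346 and 3320. Hashtag multiplets and negatives were removed, doublets within a mouse were not, and cells with at most 5% mitochondrial UMIs and at least 700 genes were kept (2474, 1661, 3462 and 2449). Of the kept cells, 6 share a barcode sequence with a cell of another library, and none of these was gated.

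Counts of gated cells were summed per mouse and fitted in edgeR 4.0.16 (R 4.3.3, limma 3.58.1) with filterByExpr, TMM factors and the robust quasi-likelihood test, over the 15 mice with at least 10 gated cells. CPM values in the comparisons use these scaled library sizes, so those given for 1 mouse differ slightly between fits, and the marker levels use plain sums. Response differences added the mouse as a term. Benjamini-Hochberg adjustment ran over all tested genes. Gene lengths came from GENCODE vM21 and promoters from RefSeq. The steps were tested on simulated data. Counting intervals and floors cover counting error only. The population, the lists and the tests were chosen with earlier results of these data known. Genes were named as the 8 largest rises and falls per time point with all treated mice beyond control and a mean of at least 20 CPM, the 4 members of each list with the smallest p, a fixed list of regulators and the 5 largest response differences per comparison. Genes outside this rule were named after their values were seen.

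Alternatives were DESeq2 1.42.0, library size without TMM, no filter on low counts, the likelihood ratio test of the study (1 time point at a time), the hashtag number as a block, each mouse left out, cells thinned to 5000 UMIs, an Mpo limit of 5 per 10000, no monocyte clause and a minimum of 3 cells per mouse. Thinning with at least 3 cells per mouse, and the response differences without the monocyte clause, were added after seeing the data. Values of some genes are not reported here.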

Additional observations from a re-analysis of the deposited data

Results flagged for a closer look

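Among 132 groups of 4 mice examined, 9 held a mouse far from the other 3, where chance flags about 1 in 20 groups. Mouse 2 at 3 h, with 11 gated cells, stood high for Cxcl10 (1750 CPM), Hk2 (122 CPM) and Tnfsf10 (166 CPM). Mouse 2 at 72 h was low for Esco2 (0 CPM) and high for Tmem71 (39.6 CPM). At 3 h, mouse 4 stood apart for Sla (19.9 CPM) and mouse 1 for Tubg1 (15.7 CPM). In control, mouse 2 had the highest summed neutrophil markers (3504 CPM) and mouse 4, with 3 gated cells, the highest summed basophil and mast cell markers (1719 CPM). Control mouse 4 entered no test.

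Responses that differed by the test of the difference itself, on the log2 scale and with edgeR's quasi-likelihood test, are given again in one place. Against Hlf-positive cells these were Rtp4 (1.26) and Prss34 (-7.23) at 24 h and Mcpt8 (-2.67) and Prss34 (-7.15) at 72 h. Against Dntt and Flt3 positive cells they were Tyrobp (1.02), Lgals1 (1.13) and Ms4a6c (1.21) at 3 h and Cenpf (1.22) and Rtp4 (1.28) at 24 h. Against Elane-high cells at 3 h they were Ms4a4c (3.04), Pyhin1 (2.77), Ifit2 (2.59), Ms4a4b (2.53), Ctss (2.47), Ms4a6c (2.15), Ms4a6b (1.84), Unc93b1 (1.44), Cebpb (1.43), Gbp7 (1.04) and Rilpl1 (-4.71), and at 24 h Aurkb (1.19). Of the 11 at 3 h, Cebpb, Pyhin1, Ctss, Unc93b1, Ms4a4c, Ms4a6c and Ms4a6b kept the call without each of the 15 mice in turn. Only Cebpb was also called without the monocyte clause of the gate.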

How the results depend on the processing

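Of 90 called values of named genes, 36 kept their call and direction under every alternative tried and 62 without each mouse in turn. Over the 2161 values of called genes under alternatives, 188 lost the call and 2 changed sign. The counts of genes higher and lower at 3 h (260 and 21), 24 h (47 and 2) and 72 h (29 and 15) moved with several settings. Thinned cells gave 90 and 17, 11 and 2, and 10 and 4. Thinning left 1 mouse with 13 gated cells at 3 h, and the limit of 5 Mpo UMIs per 10000 left 1 with 22, whose spread is assumed to be that of the other groups. With at least 3 thinned cells per mouse, chosen after seeing the data, the counts were 104 and 20, 11 and 0, and 9 and 3. Fewer gated cells, mice and UMIs enter these fits, and their parts cannot be told apart.

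The genes lower were the least steady. DESeq2 gave 3 at 3 h and 0 at 24 h. Library size without TMM gave 46 at 3 h and 25 at 72 h, and no filter on low counts gave 45 at 3 h. The likelihood ratio test gave 57, 15 and 36 lower genes beside 286, 61 and 34 higher. Without the monocyte clause they were 53 at 3 h and 9 at 24 h, and with at least 3 cells per mouse 1 at 24 h. Leaving out 1 mouse gave 247 to 272 higher and 17 to 34 lower at 3 h, 34 to 51 and 0 to 3 at 24 h, and 25 to 32 and 12 to 27 at 72 h. The 34 lower genes came without mouse 2 at 3 h and the 27 without mouse 1 at 72 h. The 24 h count of 2 fell to 0 without control mouse 1 or 24 h mouse 1, 3 or 4, and to 1 without control mouse 3, 24 h mouse 2 or 72 h mouse 3. The cause was not tested.

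The hashtag numbers were not taken to pair the mice, since same-numbered mice of different groups correlated between -0.05 and 0.10 in their deviations and 0 of 21 pairs exceeded 0.1. Of the 15 mice, 9 correlated best with their own number, which is a hint from the data and not the design. The number as a replicate block gave 253 and 25 at 3 h, 39 and 0 at 24 h, and 29 and 19 at 72 h.

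Calls of response differences at 3, 24 and 72 h changed with the filter. No filter gave 2, 4 and 4 against Hlf-positive cells, 3, 5 and 1 against Dntt and Flt3 positive cells and 16, 4 and 1 against Elane-high cells. Thinned cells gave 0, 0 and 1, then 0, 0 and 0, then 1, 2 and 0, and with at least 3 cells per mouse 1, 0 and 1, then 0, 0 and 0, then 2, 1 and 0. Without the monocyte clause there were 1, 1 and 0 against Dntt and Flt3 positive cells and 1, 2 and 0 against Elane-high cells. Leaving out 1 mouse gave 0 to 1, 0 to 2 and 0 to 2 against Hlf-positive, 0 to 4, 1 to 4 and 0 to 1 against Dntt and Flt3 positive, and 8 to 14, 0 to 3 and 0 to 2 against Elane-high cells.

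Direction turned in these cases. At 24 h Ctss was -0.093 in thinned cells and Ms4a6c -0.0099 without the monocyte clause. Against Dntt and Flt3 positive cells, the Ms4a6c difference was -0.50 without the clause. Thinned cells, with 1 mouse at 3 h, gave -0.53 for Ms4a6c, -0.069 for Lgals1, -0.33 for Tyrobp and -0.30 for Cenpf. With at least 3 cells per mouse (4 mice at 3 h) these were -0.51, 0.05, 0.26 and -0.33. Against Elane-high cells, thinned cells gave -0.23 for Ms4a4c, -0.43 for Ifit2 and -0.014 for Ctss, and with at least 3 cells per mouse 1.4, -0.24 and 0.55.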
